A study of Mus musculus with 17 samples.

Results

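Interferon regulatory factors (IRFs) were followed on 17 arrays of mouse bone marrow-derived macrophages. The family was taken as every probe set whose only gene symbol in the platform's annotation was 1 of 8 names, Irf1, Irf2, Irf3, Irf4, Irf5, Irf7, Irf8 or Irf9. This gave 9 of the 12488 probe sets on the array, for 7 of its 8252 genes with a probe set of their own. Irf3 and Irf7 had a pair each, and no probe set carried the name Irf2, which was not analysed here. The cells were macrophages grown from donor-derived marrow of irradiated mice that had been given fetal liver cells of SOCS3-/- embryos (KO) or of SOCS3+/+ embryos (WT). KO cells were unstimulated (0 min, n = 3) or had IL-6 at 10 ng/ml for 100 min (n = 3) or 400 min (n = 3), and WT cells were unstimulated (n = 2) or had the same IL-6 for 100 min (n = 3) or 400 min (n = 3). SOCS3 is the feedback inhibitor that binds gp130, the signalling chain of the IL-6 receptor, and the comparisons ask how its loss alters the transcriptional response to IL-6. The whole embryo carried the deletion, so it was not limited to macrophages, and the labels do not give the genotype of the recipients, whose own cells may survive irradiation. The labels number the replicates but do not say whether they were separate cultures, mice or donors, so each p-value reflects the spread among these arrays alone, and that spread could be technical.

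IRFs are transcription factors that share an amino-terminal DNA-binding domain and bind elements built from GAAA repeats, as found in the interferon-stimulated response element. Irf3 and Irf7 are latent factors that sensor kinases activate to switch on interferon genes, and Irf9 is needed for the transcriptional answer to type I interferon. Irf1 is itself induced through a STAT-binding element in its promoter, and Irf8, Irf4 and Irf5 shape the development and activation of myeloid and B cells.

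The authors' deposited values were linear intensities scaled per array, and array medians lay between 164.25 and 216.95. Levels given below are these intensities after quantile normalization between arrays. A level belongs to its own probe set and is not compared with that of another. Differences are log2 values from limma, with the standard error (SE), and a probe set was called at a Benjamini-Hochberg adjusted p under 0.05 over the 9871 probe sets tested. Of the 9 IRF probe sets 8 were tested, for all 7 genes. Most macrophage markers were bright. The 11 genes of that list on the array summed to between 95790 and 128738 on the 17 arrays. By their median, Lyz2, Csf1r, Cd14 and Mpeg1 were each above the 99th percentile of the array. Cd68, Fcgr1 and Adgre1 lay at percentiles 97.5 to 98.9, and Itgam, Msr1 and Mrc1 at 86.3 to 88.5. Mertk lay at 34.8, and the B cell gene Ighm at 92.6. Summed over the array-borne markers, the B cell list (10 genes) lay between 1979 and 7148 and the T and NK cell list (7 genes) between 262 and 691. The dendritic cell list (6 genes) lay between 1299 and 2338, and the neutrophil and myeloid precursor list (10 genes) between 909 and 2038. These sums come from different probe sets and do not measure shares of cells. The checks of the deletion and of the libraries left 3 limits. Socs3 on probe set 92232_at had deposited intensities of 14.9 to 160.2 on 8 KO arrays and 883.7 on the array labelled KO 400 min replicate 3, against 429.5 to 2647.6 on the stimulated WT arrays. The unstimulated WT arrays, at 110.7 and 72.9, lay within the KO range. On 162206_f_at Socs3 had 784.3 on KO 400 min replicate 3, 319.7 on KO 100 min replicate 3 and 29.8 to 148.5 on the other KO arrays. There the stimulated WT arrays had 479.7 to 1333 and the unstimulated ones 175.1 and 103.3. KO and WT arrays also differed throughout in Eif2s3y (7.67 to 112 in KO, 245 to 790 in WT) and Xist (228 to 993 in KO, 11.1 to 188 in WT), a Y-linked and an X-linked transcript, so that genotype and these levels cannot be told apart. Of the 5 replicate 3 arrays, 4 stood apart along the first principal component, at 26.6 to 58.1, where no array of replicates 1 and 2 exceeded 2.27.

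Irf1 was the IRF that rose. It encodes an activator of interferon-inducible genes such as those for guanylate-binding proteins. On probe set 102401_at it had levels of 586, 903 and 553 in unstimulated KO cells, of 5767, 5352 and 2228 after 100 min of IL-6, and of 4667, 4244 and 3788 after 400 min, with the replicates in number order here and below. In WT cells Irf1 had 960 and 913 at 0 min, 1374, 1357 and 911 at 100 min, and 1108, 1116 and 689 at 400 min. Every stimulated KO array was above every other array, and the stimulated WT arrays overlapped the unstimulated ones. In KO cells Irf1 rose 6.17-fold at 100 min, by 2.63 (SE 0.35, adjusted p = 0.00326 in limma's test). At 400 min it rose 6.35-fold, by 2.67 (SE 0.35, adjusted p = 0.00198). These were the 12th and 15th largest of 9871 by size of the test statistic. Of the 8 IRF probe sets 1 was called in each comparison, where 0.577% and 1.82% of all tested probe sets were called either way and 0.537% and 1.2% higher. In KO cells 400 min minus 100 min was 0.04 (95% interval -0.72 to 0.80, adjusted p = 0.988); replicates 1 and 2 were lower at 400 min and replicate 3 was higher. Fitted on the KO 0 and 100 min arrays alone, the 100 min rise lost its call (adjusted p = 0.158). Without the array labelled KO 400 min replicate 3 the 400 min rise was 2.74 (adjusted p = 0.00577).

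In WT cells Irf1 was not called at either time. The difference was 0.35 (SE 0.40, adjusted p = 0.942) at 100 min and 0.02 (95% interval -0.83 to 0.87, adjusted p = 0.999) at 400 min. Within replicates 1 and 2 the WT value at 100 min was 0.54, with both arrays higher, and the samples analysed here hold no unstimulated WT array of replicate 3. Over the whole array 0.0101% of probe sets were called in WT cells at each time, so the WT comparisons made almost no calls of any gene.

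At 400 min Irf1 was 4.45-fold higher in KO than in WT cells, by 2.15 (SE 0.35, adjusted p = 0.0201), where 0.365% of probe sets were called either way and 0.314% higher. That call was lost without KO 400 min replicate 1 (adjusted p = 0.0969) or 2 (0.0808), without WT 400 min replicate 2 (0.0551) or 3 (0.0898), and in a fit of those groups alone (0.0967). Without the array labelled KO 400 min replicate 3 it stood at 2.23 (adjusted p = 0.0323). At 100 min Irf1 was 1.78 higher in KO cells (SE 0.35, 95% interval 1.02 to 2.54), with no overlap between the groups, and missed the threshold (adjusted p = 0.127), where 0.0405% of probe sets were called either way and 0.0304% higher, and 9.17% did not overlap. It passed with a term for replicate 3 in the fit (adjusted p = 0.00999), within replicates 1 and 2 (2.02, adjusted p = 0.0166) and without KO 100 min replicate 3 (2.22, adjusted p = 0.0359). Unstimulated, the KO levels were all below both WT levels, but by -0.50 (SE 0.40, adjusted p = 0.908), and by -0.36 within replicates 1 and 2. In that comparison 23.3% of probe sets did not overlap. The KO response minus the WT response was 2.28 at 100 min (SE 0.53, adjusted p = 0.787). The same difference was 2.65 at 400 min (SE 0.53, adjusted p = 0.217). It was therefore not called at either time, in comparisons where 0% of probe sets were called, although 361 and 531 had an unadjusted p under 0.05. With a term for replicate 3 the 400 min difference was 2.43 and passed (adjusted p = 0.0415).

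**Figure D1:**
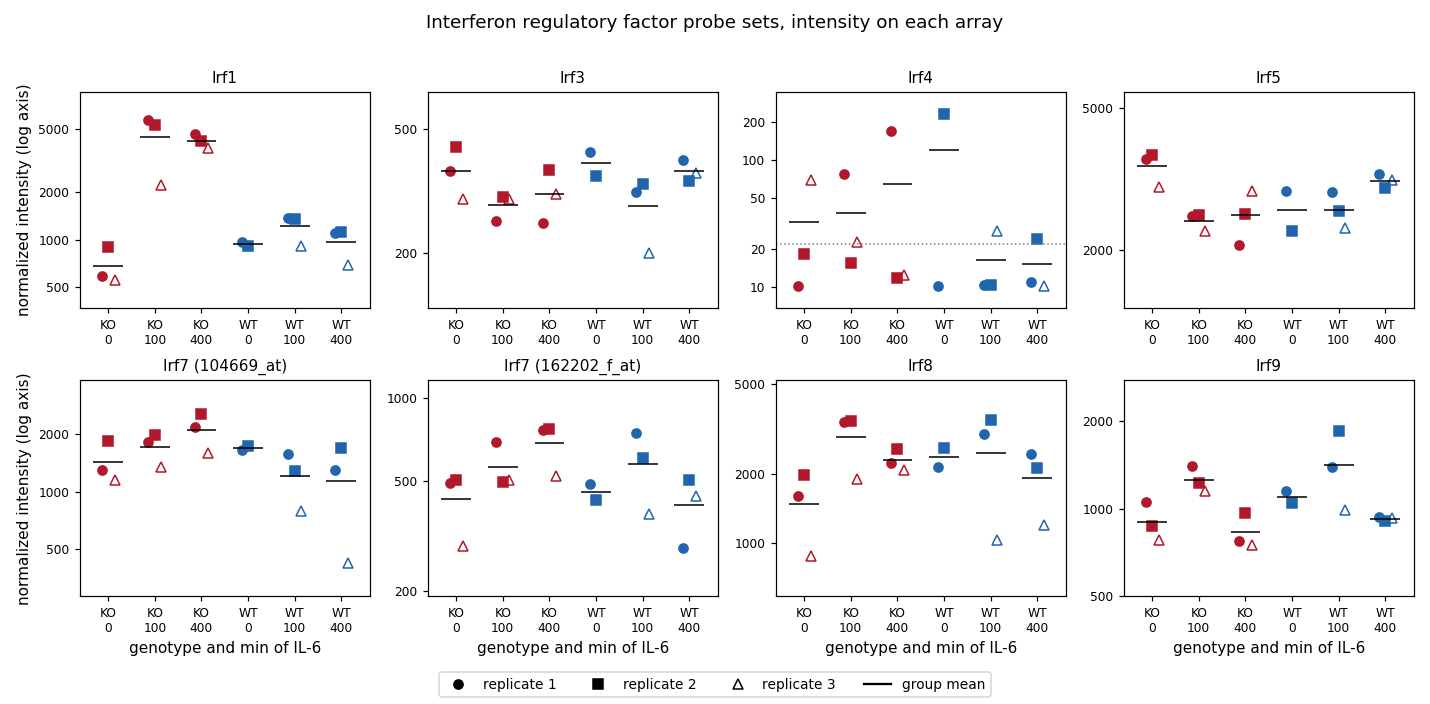
Normalized intensity of the 8 tested IRF probe sets on each array (log axis), by genotype and min of IL-6. KO groups (red) stand left of WT groups (blue), symbols mark the replicate, horizontal lines are group means, and the dotted line in the Irf4 panel is the intensity floor of 22.0. The stimulated KO arrays of Irf1, at 2228 to 5767, lie above every other Irf1 array, and the open triangles of replicate 3 are the lowest of their groups for Irf1 and Irf8.

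The promoter of Irf1 is shown because Irf1 was the member that rose, beside those of Irf8, whose 100 min difference in KO cells was the next largest, and of Irf5, which was lower. Each is 300 bases from RefSeq (GRCm38.p6), 5′ to 3′ on the gene's strand, from 250 bases before the annotated start to 50 after; capitals mark TTCNNNGAA, the form of element that STAT dimers bind, which reads the same on both strands.
Irf1, chr11:53769764-53770063, plus strand: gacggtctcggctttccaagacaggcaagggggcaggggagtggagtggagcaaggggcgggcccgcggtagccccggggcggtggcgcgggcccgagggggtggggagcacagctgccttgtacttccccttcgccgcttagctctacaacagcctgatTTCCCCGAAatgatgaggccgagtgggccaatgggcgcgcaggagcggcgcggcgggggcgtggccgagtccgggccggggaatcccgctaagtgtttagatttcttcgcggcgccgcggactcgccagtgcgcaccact
Irf8, chr8:120736108-120736407, plus strand: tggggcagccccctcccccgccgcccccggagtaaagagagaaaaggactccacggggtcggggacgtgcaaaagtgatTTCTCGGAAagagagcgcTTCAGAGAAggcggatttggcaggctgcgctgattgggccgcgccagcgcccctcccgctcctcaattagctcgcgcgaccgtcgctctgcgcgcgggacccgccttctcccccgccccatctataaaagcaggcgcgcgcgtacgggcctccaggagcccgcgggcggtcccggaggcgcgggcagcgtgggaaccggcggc
Irf5, chr6:29526375-29526674, plus strand: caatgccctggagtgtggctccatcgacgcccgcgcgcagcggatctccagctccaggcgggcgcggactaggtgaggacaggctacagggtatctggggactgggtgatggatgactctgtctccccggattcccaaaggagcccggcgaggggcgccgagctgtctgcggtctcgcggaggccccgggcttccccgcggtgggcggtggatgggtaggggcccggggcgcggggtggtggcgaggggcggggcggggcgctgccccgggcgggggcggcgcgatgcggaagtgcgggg
Irf1 held 1 match, TTCCCCGAA, beginning 90 bases before the start, and its second annotated window held none. Irf8 held 2 in its first window, TTCTCGGAA and TTCAGAGAA, beginning 171 and 153 bases before the start. Irf2, not measured on the array, had 1 as well, and the windows of Irf3, Irf4, Irf5, Irf7 and Irf9 held none. A match was held by 8.3% of all 32851 annotated promoter windows and by 3 of the 11 IRF windows. With only 11 windows this is a small count, and the difference in share was not tested. The IRF element GAAANNGAAA, searched on both strands, was found in 3.44% of all windows and in 1 of the 11, that of Irf2. A match describes letters and not a bound site, and no match says only that these letters are not in the window.

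Irf9 and Irf7, which act downstream of interferon receptors, were not called in any comparison. Irf9, which is needed for the answer of cells to type I interferon, had levels of 1052, 870 and 780 in KO cells at 0 min, 1404, 1227 and 1147 at 100 min, and 774, 968 and 745 at 400 min. In WT cells Irf9 had 1150 and 1045 at 0 min, 1396, 1852 and 989 at 100 min, and 937, 902 and 931 at 400 min. In both genotypes the 100 min arrays were the highest by their mean, and all 400 min arrays were below all 100 min arrays. Irf9 at 400 min minus 100 min was -0.61 in KO cells (SE 0.24, unadjusted p = 0.0233, adjusted p = 0.457). In WT cells the same difference was -0.57 (SE 0.24, unadjusted p = 0.0323, adjusted p = 0.747). Groups did not overlap for 14.9% of probe sets in the KO comparison and 11.6% in the WT comparison. KO and WT arrays overlapped at each time, with differences of -0.29 at 0 min, -0.12 at 100 min (95% interval -0.64 to 0.39) and -0.16 at 400 min (95% interval -0.68 to 0.35).

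Irf7, the factor that amplifies interferon alpha production, was read by 104669_at and 162202_f_at; Affymetrix gives the _f suffix to probe sets whose probes can match related transcripts. On the first, Irf7 levels were 1291, 1838 and 1146 in KO cells at 0 min, 1812, 1980 and 1353 at 100 min, and 2186, 2552 and 1601 at 400 min. In WT cells they were 1660 and 1725, then 1572, 1275 and 791, then 1295, 1691 and 425. Within each replicate number the KO level was higher at 400 min than at 100 min and lowest at 0 min, whereas no stimulated WT array exceeded the higher unstimulated one. At 400 min the difference of Irf7, KO minus WT, was 1.09 on the first probe set (SE 0.44, unadjusted p = 0.0267, adjusted p = 0.488), with the groups overlapping. On the second, where it had 767, 772 and 520 in KO cells and 287, 505 and 440 in WT cells, it was 0.76 (SE 0.32, unadjusted p = 0.0356, adjusted p = 0.518) with no overlap, as for 14.8% of all probe sets. Within replicates 1 and 2 this difference was 0.67 on the first and 1.02 on the second. Within replicate 3 it was 1.91 and 0.24. Without WT 400 min replicate 3 (425 on the first probe set) the difference on the first was 0.49. The probe sets differed in WT cells at 100 min, at -0.54 (SE 0.49) on the first and 0.29 (SE 0.36) on the second, and their correlation over the 17 arrays was 0.50.

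Irf3, the latent factor that induces interferon beta, stayed within a narrow range on 99103_at, from 200 to 440 over all arrays. Its group means in KO cells were 369 ± 71.0 at 0 min, 285 ± 27.9 at 100 min and 310 ± 60.2 at 400 min (SD, n = 3 each). In WT cells they were 389 ± 48.7 (SD, n = 2), 283 ± 72.9 and 367 ± 29.7 (SD, n = 3 each). No neighbours in the order of these 6 levels were separated. The largest Irf3 difference was at 100 min in WT cells, -0.49 (95% interval -1.09 to 0.11, adjusted p = 0.879). The groups did not overlap there, as for 22% of all probe sets. The second Irf3 probe set, 162425_f_at, was too dim to be tested; it lay at 4.1 to 168 and was at or under the floor of 22.0 on 5 arrays, among them all 3 KO arrays at 400 min.

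Irf8, required for macrophage and dendritic cell development, had levels of 1614, 1980 and 877 in KO cells at 0 min, 3385, 3439 and 1903 at 100 min, and 2251, 2594 and 2084 at 400 min. In WT cells Irf8 had 2148 and 2608 at 0 min, 2992, 3446 and 1029 at 100 min, and 2455, 2136 and 1199 at 400 min. Replicate 3 was the lowest array of its group in all 5 groups that have one. In KO cells Irf8 was 0.99 (SE 0.46, unadjusted p = 0.0473) higher at 100 min and did not pass (adjusted p = 0.794). The KO value was 1.07, 0.80 and 1.12 within replicates 1, 2 and 3, so all 3 went the same way. In WT cells at 100 min the value was -0.11 over all arrays and 0.44 within replicates 1 and 2; WT 100 min replicate 3 was the lowest of the 8 WT arrays. Unstimulated KO cells were below both unstimulated WT arrays, by -0.75 (SE 0.51, adjusted p = 0.898), in a comparison where 23.3% of probe sets did not overlap. The unstimulated WT cells have no replicate 3 array, and within replicates 1 and 2 the Irf8 difference was -0.41. B cells also express Irf8, and the B cell markers summed to 1979 to 4633 in KO and 6563 to 7148 in WT cells at 0 min. Of the 9 B cell markers tested, Ighm among them, 0 were called in this comparison, where 0% of all probe sets were called. Ighm alone lay at 749 to 3301 in KO and 5135 to 5860 in WT. The other 9 markers overlapped, at 1126 to 1332 in KO and 1288 to 1428 in WT. The lowest KO sum and the lowest KO Ighm were those of replicate 3. Replicates 1 and 2 of unstimulated KO cells had sums of 4633 and 4210, with Ighm at 3301 and 3085. The part of these markers' cells in the Irf8 difference was not tested, and in bulk RNA fewer cells of a type and less RNA per cell cannot be told apart.

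Irf5, which works with MyD88 in the induction of inflammatory cytokines, had lower levels in stimulated than in unstimulated KO cells, short of the threshold. Its levels were 3596, 3690 and 3005 at 0 min, 2483, 2504 and 2264 at 100 min, and 2066, 2518 and 2925 at 400 min. In WT cells Irf5 had 2921 and 2268 at 0 min, 2904, 2566 and 2302 at 100 min, and 3259, 2974 and 3144 at 400 min. All stimulated KO arrays were below all unstimulated KO arrays, while the WT arrays at 400 min were the highest WT ones. Against 0 min in KO cells, groups did not overlap for 11.3% of all probe sets at 100 min and 17.6% at 400 min. For WT cells at 400 min this held for 22% against 0 min and 11.6% against 100 min. The KO difference at 100 min was -0.50 (SE 0.20, unadjusted p = 0.0269, adjusted p = 0.657). At 400 min it was -0.46 (SE 0.20, unadjusted p = 0.0383, adjusted p = 0.367), being -0.68 within replicates 1 and 2 and -0.04 within replicate 3. The KO response minus the WT response was -0.74 (SE 0.30, unadjusted p = 0.0284, adjusted p = 0.865) at 400 min. None of these passed.

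Irf4, a factor of plasma cells and of alternatively activated macrophages, was near the bottom of the measured range. On 10 of 17 arrays its level did not exceed the floor, its median was 15.6, and it met the filter through 2 arrays above the 40th percentile. These were KO 400 min replicate 1 (170) and WT 0 min replicate 2 (230). Values at the floor have no order, each group held arrays at the floor, and no order of groups was read from them. The largest fitted difference between groups was -1.65 (SE 0.99, adjusted p = 0.871) in WT cells at 400 min, and without the bright unstimulated WT array it was 0.042.

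**Figure D2:**
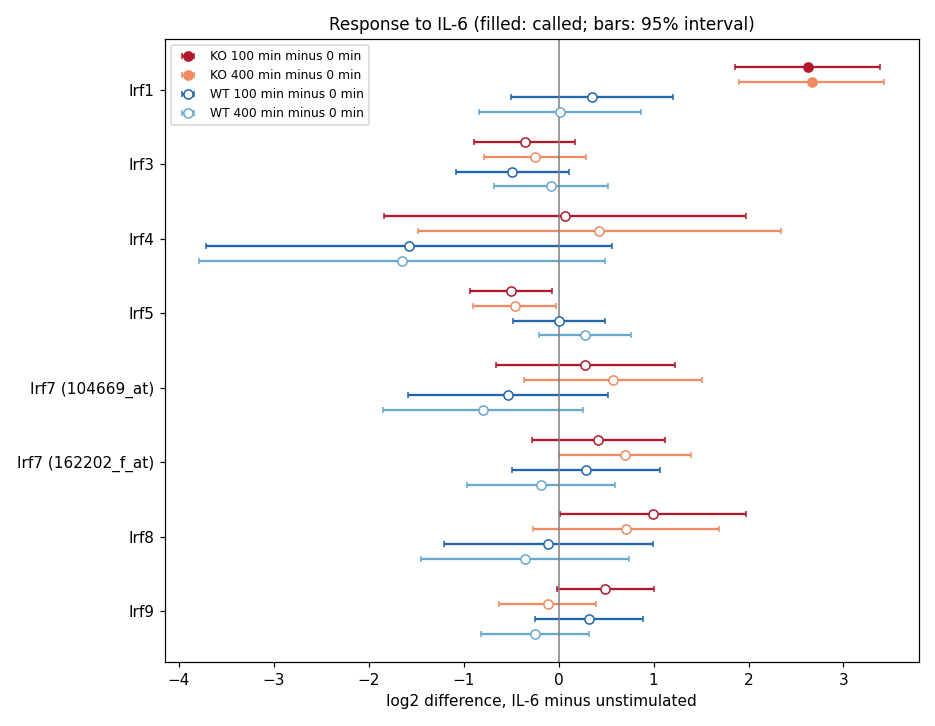
Log2 difference of each IRF probe set between IL-6 and unstimulated cells, with 95% intervals, in KO cells (red and orange) and WT cells (dark and light blue); filled points were called. Irf1 in KO cells, at 2.63 and 2.67, is the only member called, and the intervals of Irf4 are the widest.

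Over the 8 tested probe sets, which include Irf7 by its pair, the median difference in KO cells was 0.35 at 100 min and 0.50 at 400 min, against -0.04 over all tested probe sets at both times. In WT cells it was -0.05 at 100 min and -0.22 at 400 min, against -0.01 over all at both times. The KO comparisons share the unstimulated KO arrays, and the WT comparisons share the unstimulated WT arrays. No unstimulated WT array is of replicate 3, which was lower on 3 IRF probe sets (below). Comparisons with that group therefore mix IL-6 or genotype with replicate. Within replicates 1 and 2, WT 100 minus 0 min was 0.54 for Irf1, 0.57 for the second Irf7 probe set and 0.44 for Irf8. It was 0.55 for Irf9, 0.08 for Irf5 and below 0 for the others. Over all arrays, values were above 0 for 6 and 5 of 8 in KO cells and for 4 and 2 of 8 in WT cells. The groups did not overlap for 3 of 8 at 100 min and 4 of 8 at 400 min in KO cells, where this held for 11.3% and 17.6% of all probe sets. In WT cells it held for 2 of 8 at each time, where this held for 22% of all probe sets, a share near the background. KO minus WT, the median was -0.29 at 0 min with 1 of 8 above 0 (Irf5), 0.20 at 100 min with 6 of 8, and 0.54 at 400 min with 5 of 8. Of these Irf1 at 400 min was the 1 called, and 0 were called at 0 min (limma, with 591 of all probe sets at an unadjusted p under 0.05) and at 100 min. Over all tested probe sets 0% were called at 0 min, 0.0405% at 100 min and 0.365% at 400 min, so the counts of 0 are near the background. Within replicates 1 and 2 at 0 min, Irf3 (0.05) and the second Irf7 probe set (0.13) were above 0 beside Irf5 (0.50). The other probe sets were below 0 there.

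**Figure D3:**
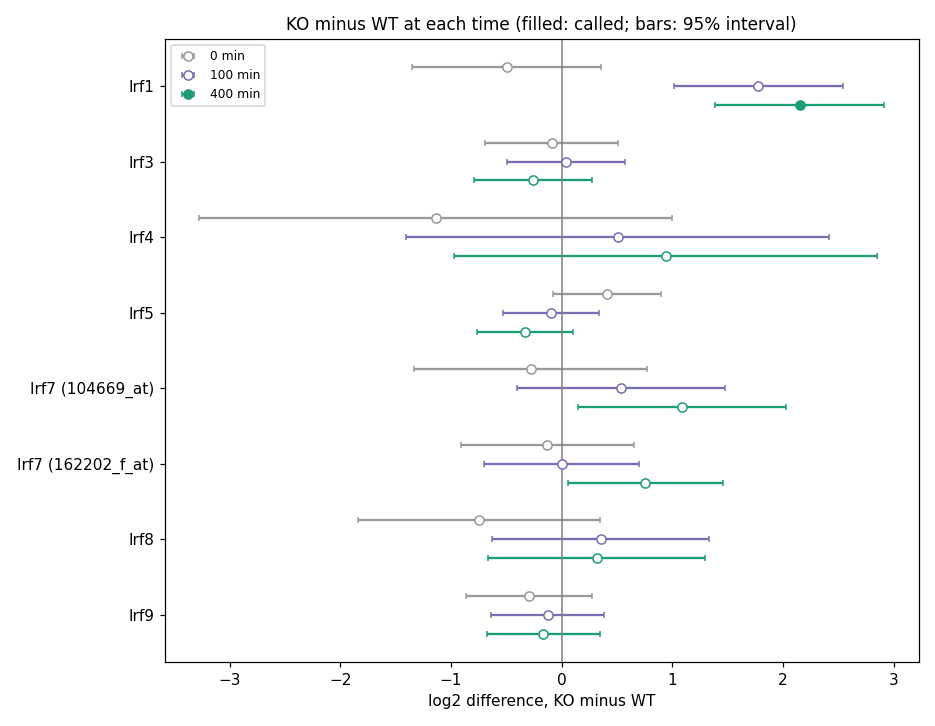
Log2 difference of each IRF probe set, KO minus WT, at 0, 100 and 400 min, with 95% intervals; filled points were called. Irf1 at 400 min (2.15) is the only filled point, and at 400 min the intervals of both Irf7 probe sets lie above 0 before adjustment.

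Replicate 3 had lower levels on 3 IRF probe sets whatever the group. With a term for replicate 3 against replicates 1 and 2 beside the group means, Irf8 was at -0.93 (SE 0.17, adjusted p = 0.0096), Irf7 on the first probe set at -0.82 (SE 0.19, adjusted p = 0.0255) and Irf1 at -0.64 (SE 0.16, adjusted p = 0.0315). These 3 of 8 were called, all lower, where 7.26% of all tested probe sets were called either way, 3.58% lower and 3.69% higher. Irf1, Irf8 and Irf7 on the first probe set each had their lowest value on the replicate 3 array in all 5 groups that have one. The second Irf7 probe set (-0.43, SE 0.18, adjusted p = 0.176) was not called, and its replicate 3 array was the lowest in 3 of 5 groups. Irf5 (-0.06, SE 0.13) and Irf3 (-0.20, SE 0.15) were not called either. Ighm lay at 615 to 1352 on the replicate 3 arrays and at 901 to 5860 on the others, the other 9 B cell markers summed to 1150 to 1565 and 1126 to 1669, and the macrophage markers to 95790 to 105860 and 97645 to 128738. Their part in these differences was not tested. The rise of Irf1 in KO cells was present both ways: 2.01 at 100 min and 2.78 at 400 min within replicate 3, and 2.93 and 2.61 within replicates 1 and 2.

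**Figure D4:**
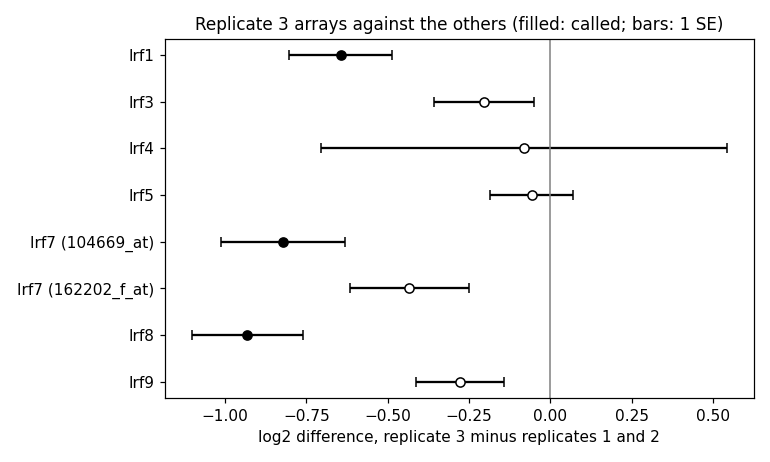
Log2 difference of each IRF probe set between the 5 replicate 3 arrays and the 12 arrays of replicates 1 and 2, from a fit that also holds the 6 group means; bars are 1 SE and filled points were called. Irf8 (-0.93), Irf7 on 104669_at (-0.82) and Irf1 (-0.64) are the called ones.

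The genes around the IRFs were read from 5 lists, chosen with earlier results of these data known. Of the known IRF targets 43 genes were tested: 10 rose and 0 fell in KO cells at 100 min, 15 rose and 0 fell at 400 min, and 0 were called in WT cells at either time. Over all tested probe sets 0.537% and 1.2% were called higher in KO cells at these times. In WT cells 0.0101% were called at each time, so 0 of 43 is near the background. Their median was 1.29 and 1.01 in KO cells at 100 and 400 min, against -0.04 over all probe sets, and 0.43 and -0.20 in WT cells, against -0.01. At 100 min the largest rises were those of the GTPase gene Iigp1 (4.28, adjusted p = 0.00436), the chemokine gene Cxcl10 (3.998, adjusted p = 0.00169) and the guanylate-binding protein genes Gbp2 (3.31, adjusted p = 0.00305) and Gbp7 (3.27, adjusted p = 0.00533). At 400 min these were Iigp1 (5.16), Gbp2 (4.68), Gbp3 (3.69) and the GTPase gene Ifi47 (3.52), with adjusted p-values of 0.000862, 0.000143, 0.00128 and 0.00647. KO against WT at 400 min, 10 of 43 were higher and 0 lower, where 0.314% of all probe sets were called higher. The largest were again Iigp1 (4.98), Gbp2 (3.50), Gbp3 (3.31) and Ifi47 (3.11). At 100 min 0 of 43 were called in KO against WT, where 0.0405% of all probe sets were called either way. For the KO response minus the WT response 0 of 43 were called at 100 and at 400 min, where 0% of all probe sets were called. A different response of the targets in KO and WT cells was therefore not called. The IRF element was in the promoter windows of 15 of the 33 tested target genes that have a window, or 45.5%, against 3.99% of all genes. The list was composed of known IRF targets, so this share describes how the list was chosen. It is no result of these arrays.

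The other lists held 0 or 1 called gene each. Over all tested probe sets 1.82% were called either way in KO cells at 400 min, the largest share of any comparison. In KO against WT at 400 min the share was 0.365%. Of 11 tested genes for interferons and their receptors 0 were called in any of the 11 comparisons (limma). Of 8 genes of the JAK-STAT relay 1 was called, Socs1, an inhibitor of JAK kinases, which at 400 min was higher in KO than in WT cells by 2.58 (SE 0.46, adjusted p = 0.0336). Of 10 sensors, adaptors and kinases that activate IRFs, Myd88, the adaptor of Toll-like receptors, rose by 2.16 (SE 0.31, adjusted p = 0.00347) in KO cells at 400 min. Of 19 DNA-binding partners and coactivators, the AP-1 gene Junb rose by 1.49 (SE 0.32, adjusted p = 0.0304) in the same comparison.

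Over the 17 arrays the genes whose log2 values were most like those of Irf1 were Ccl7, a monocyte chemoattractant (Pearson's r = 0.956), Mcoln2, an endolysosomal cation channel (0.939), Ccl12, a related chemoattractant (0.928), Gbp2 (0.928) and Plscr1, a phospholipid scramblase (0.925), out of 8729 probe sets compared. The arrays share their libraries and groups, so this describes likeness only. Among the IRFs the closest to Irf1 over all arrays was Irf7 on its second probe set (r = 0.63), then Irf8 (0.61), and Irf5 ran against it (-0.56). With group means taken out, r was 0.79 between Irf1 and Irf8 and 0.76 between Irf8 and the first Irf7 probe set. These probe sets were the ones called lower on replicate 3, and taking out group means does not remove that shared difference.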

How the data were processed

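Per the labels, total RNA of macrophages was put on 17 arrays, grouped by title into KO and WT at 0, 100 and 400 min of IL-6. The deposited table gives 1 linear intensity per probe set and array; from the values, its mean without the lowest and highest 2% was about 500.3 to 500.4 on every array, so the authors had scaled each array. Which software and background correction the authors used is not given in the labels or headers, and there are no detection calls, so the number of arrays limits the precision. Every column was used.

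Array medians differed by 0.40 on the log2 scale, above a limit of 0.3, so values were quantile normalized, raised to at least the 10th percentile (22.0, the floor) and log2 transformed. A probe set other than the 66 controls was tested when above the 40th percentile of its array on at least 2 arrays: 9871 passed. Limma 3.58.1 in R 4.3.3 fitted 1 mean per group over all 17 arrays with eBayes (prior degrees of freedom 2.60, residual 11); tests were two-sided, with Benjamini-Hochberg adjustment in each of 11 comparisons. The code was tested on simulated data. The annotation gave 1 symbol to 10855 probe sets, several to 396 and none to 1237.

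The IRFs, the 5 pathway lists, the marker lists and the rules were chosen with earlier results of these data known. All IRF probe sets are named; from each list up to 4 called genes with the largest difference per comparison, and the 5 genes most correlated with each called IRF. List genes entered with their brightest tested probe set. Promoters came from RefSeq (GRCm38.p6); all 8 IRF genes matched by symbol. The alternatives were other normalization, floors, filter, groups in the fit, replicate terms, variance moderation and each array left out.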

Additional observations from a re-analysis of the deposited data

How the results depend on the processing

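Irf1 was called in KO cells at 400 min under all 9 alternatives and with each of the 17 arrays left out (2.54 to 2.89), and at 100 min with each array left out (2.38 to 3.06) and under 8 alternatives. Counts of IRFs called were 1 in KO cells at 100 min, 1 in KO against WT at 400 min and 0 in KO against WT at 100 min and in the difference of responses at 400 min. They moved as follows. With only the groups compared in the fit, the counts were 0 for KO at 100 min and 0 for KO against WT at 400 min. For KO against WT at 100 min the count was 1 with a replicate block, 1 with a term for replicate 3, 1 within replicates 1 and 2 and 1 with trend and robust moderation; with single arrays left out it was 0 to 1. The difference of responses at 400 min gave 1 with a term for replicate 3 and 1 with trend and robust moderation (2.65, adjusted p = 0.0221), and with the replicate block 0 (2.43, adjusted p = 0.0723). KO against WT at 400 min gave 0 to 1 with single arrays left out. In all these changes the gene was Irf1, and the replicate block changed no other call of an IRF. Deviations of arrays from their group means correlated at 0.10 to 0.24 between replicate 3 arrays, over 0.1 in 10 of 10 pairs, so that number 3 ties arrays across groups. The values were -0.02 to 0.11 for replicate 1, -0.01 to 0.09 for replicate 2 and a median of -0.04 between different numbers, so the 3 numbers together did not meet the rule for paired samples, every pair over 0.1.

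Over 88 differences of IRFs and 26 settings, 65 of 2288 values were reversed, all of them uncalled both ways; the causes were not tested. For Irf7 on its second probe set (162202_f_at), KO minus WT at 100 min became -0.026 without quantile normalization, -0.00068 with 16 added in place of the floor and -0.20 within replicates 1 and 2. At 0 min it became 0.017 with the replicate block, 0.017 with a term for replicate 3 and 0.13 within replicates 1 and 2, and its response difference at 100 min -0.017, -0.017 and -0.33. Irf8 in WT cells at 100 min became 0.20, 0.20 and 0.44 in these settings. Within replicates 1 and 2, 400 minus 100 min was -0.32 for Irf1 and -0.13 for Irf5 in KO cells and 0.062 for Irf4 and 0.064 for the first Irf7 probe set in WT cells. There, Irf3 gave 0.054 at 0 min and -0.23 at 100 min for KO minus WT and -0.28 for the response difference at 100 min, and Irf9 gave -0.10 for that difference. With single arrays left out, reversed results ranged as follows. Irf4 ranged over -0.53 to 0.62 for KO 100 minus KO 0 min, -0.093 to 0.82 for KO minus WT at 100 min and -0.55 to 0.98 for KO 400 minus KO 0 min. Irf4 ranged over -0.62 to 0.96 for KO 400 minus KO 100 min, -0.042 to 1.43 for KO minus WT at 400 min and -3.27 to 0.11 for WT 100 minus WT 0 min. Irf4 ranged over -3.34 to 0.042 for WT 400 minus WT 0 min, -2.83 to 0.55 for KO minus WT at 0 min and -0.046 to 3.34 for the response difference at 100 min. Irf4 ranged over -0.13 to 0.042 for WT 400 minus WT 100 min. Irf9 ranged over -0.23 to 0.000298 for KO 400 minus KO 0 min, -0.36 to 0.095 for KO minus WT at 100 min and -0.063 to 0.39 for the response difference at 100 min. Irf3 ranged over -0.23 to 0.054 for KO minus WT at 0 min, -0.10 to 0.27 for the response difference at 100 min and -0.19 to 0.18 for KO minus WT at 100 min. Irf3 ranged over -0.028 to 0.26 for KO 400 minus KO 100 min and -0.21 to 0.046 for WT 400 minus WT 0 min. Irf7 (second probe set) ranged over -0.27 to 0.13 for KO minus WT at 0 min, -0.15 to 0.34 for the response difference at 100 min and -0.27 to 0.21 for KO minus WT at 100 min. Irf7 (second probe set) ranged over -0.36 to 0.052 for WT 400 minus WT 0 min. Irf1 ranged over -0.40 to 0.29 for KO 400 minus KO 100 min and -0.10 to 0.25 for WT 400 minus WT 0 min. Irf5 ranged over -0.082 to 0.17 for KO 400 minus KO 100 min and -0.18 to 0.19 for WT 100 minus WT 0 min. Irf8 ranged over -0.43 to 0.44 for WT 100 minus WT 0 min, -0.80 to 0.073 for WT 400 minus WT 100 min and -0.19 to 0.68 for KO minus WT at 100 min. Irf7 (first probe set) ranged over -0.65 to 0.34 for WT 400 minus WT 100 min.

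Counts over all probe sets were less stable: 57, 180 and 36 for KO at 100 and 400 min and KO minus WT at 400 min became 0, 52 and 2 with only the groups compared, 94, 332 and 85 with a term for replicate 3, and 117, 276 and 122 within replicates 1 and 2. With single arrays left out they were 24 to 79, 73 to 229 and 11 to 55. Dim signal limits what can be said of Irf4 and of the second Irf3 probe set.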
